A study of Mus musculus with 18 samples.

Results

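DNA methylation of luminal progenitor cells was compared between pregnant and virgin mice. The members were the progenitor libraries labelled virgin or pregnant, 5 of the 18 libraries of the series. They were made from mammary gland of female C57BL/6 mice, with no other genotype or treatment given in the labels. The virgin group held a library from mice at week 3 and a library from mice at week 9. The pregnant group held libraries from day 10, day 16 and day 19 of pregnancy, without the age of the mice. The other libraries were stem and mature luminal cells of the same stages and retired breeders of all 3 cell types. Each stage gave 1 library per cell type, so the stages served as replicates, and the labels do not say whether animals were pooled or shared between cell types. Each p-value is thus relative to the spread among these 5 libraries, which may be technical and takes in the stage of pregnancy and, for the virgin group, the age.

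Luminal progenitors are the cells of the inner mammary epithelial layer that give rise to the alveolar cells of pregnancy, which later secrete milk. Methylation of cytosine in CpG dinucleotides is copied at cell division, and dense methylation of a promoter usually goes with silence of the gene. In females, many promoters of 1 X chromosome are methylated during X inactivation. Some promoters of imprinted genes are methylated on the allele of a single parent. Promoters methylated in either way have intermediate levels in a population of normal cells.

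Reads at listed CpGs summed to 51818940 in the week 3 library, 105559878 in week 9, 73762909 in day 10, 21066553 in day 16 and 29321108 in day 19. A CpG entered the comparison where all 5 libraries had at least 5 reads, which kept 1044737 CpGs, with a median of 38, 74, 54, 14 and 22 reads in the same order of libraries. Reads were then summed in 101394 tiles of 1000 bp with at least 3 such CpGs (median 80 to 402 reads per library) and in 8038 gene promoters. Depth moved with the groups, since day 16 and day 19 were the shallowest, and these 2 libraries were also deposited in a different file layout. The part of either in the results was not tested beyond the thinned and restricted data given beside them.

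No progenitor library was most like another progenitor library. Across 86751 tiles measured in all 15 virgin and pregnant libraries, after subtraction of each tile's mean, the week 3 virgin library correlated best with day 19 mature cells (Pearson's r = 0.260) and the week 9 virgin library with day 16 mature cells (r = 0.435). The day 10 library stood nearest to day 19 mature cells (r = 0.373), the day 16 library to day 16 mature cells (r = 0.282) and the day 19 library to week 3 virgin stem cells (r = 0.418). The highest correlation with another progenitor library was 0.0364 to 0.206. These correlations are descriptions across tiles that share libraries and depth. Marker promoters did not settle the label: 3 of 14 luminal progenitor markers could be measured (Kit, Itga2 and Mfge8), 1 of 13 mature luminal markers (Prom1), 2 of 18 basal and stem markers (Vim and Oxtr), 1 of 7 endothelial markers (Kdr) and none of the 10 immune or 9 fibroblast and adipocyte markers. All were weakly methylated in the 5 libraries, Prom1 most with 3.35 to 10.4% and the others with 0 to 1.45%. The label was therefore neither supported nor contradicted by its markers. The tests, library means and counts of separate tiles and promoters were also computed without each library in turn.

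The average methylation level of progenitor cells differed little between the states. The mean of the CpG levels was 47.1% in week 3, 47.1% in week 9, 47.6% in day 10, 47.5% in day 16 and 46.8% in day 19. Virgin libraries averaged 47.1% ± 0.0168 (SD, n = 2) and pregnant libraries 47.3% ± 0.407 (SD, n = 3). The day 10 and day 16 libraries lay above both virgin libraries and day 19 lay lowest, so the groups overlapped. The difference of 0.219 points did not pass a two-sided exact permutation test (p = 0.4). The smallest p that 2 against 3 libraries allow is 0.1. The difference was 0.0963 points without day 10, 0.107 without day 16 and 0.454 without day 19. With reads pooled over the same CpGs, so that deep CpGs weigh more, the difference was -0.459 points (exact permutation p = 1).

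Unmethylated, intermediate and methylated CpGs were then taken apart, and no class passed the test. CpGs with a mean level under 20% made up 43.6% of the total, and pregnant minus virgin was 0.0074 points (exact permutation p = 0.9). CpGs of 20 to 80%, where cells of a sample or the alleles of a cell differ, were 15.6% of the total and had means of 56.8%, 57.3%, 58.8%, 57.0% and 56.8% in week 3, week 9, day 10, day 16 and day 19. Day 10 stood highest among these and day 19 about level with week 3, and the difference was 0.497 points (exact permutation p = 0.9). In the CpGs over 80%, 40.8% of the total, it was 0.339 points (exact permutation p = 0.7). Tiles of 3 to 9 measured CpGs differed by 0.478 points, tiles of 10 to 19 by 0.178 points and tiles of 20 or more by 0.046 points (exact permutation p = 0.4, 0.4 and 0.8). After Benjamini-Hochberg adjustment over these 6 classes every p was 0.9.

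**Figure D1:**
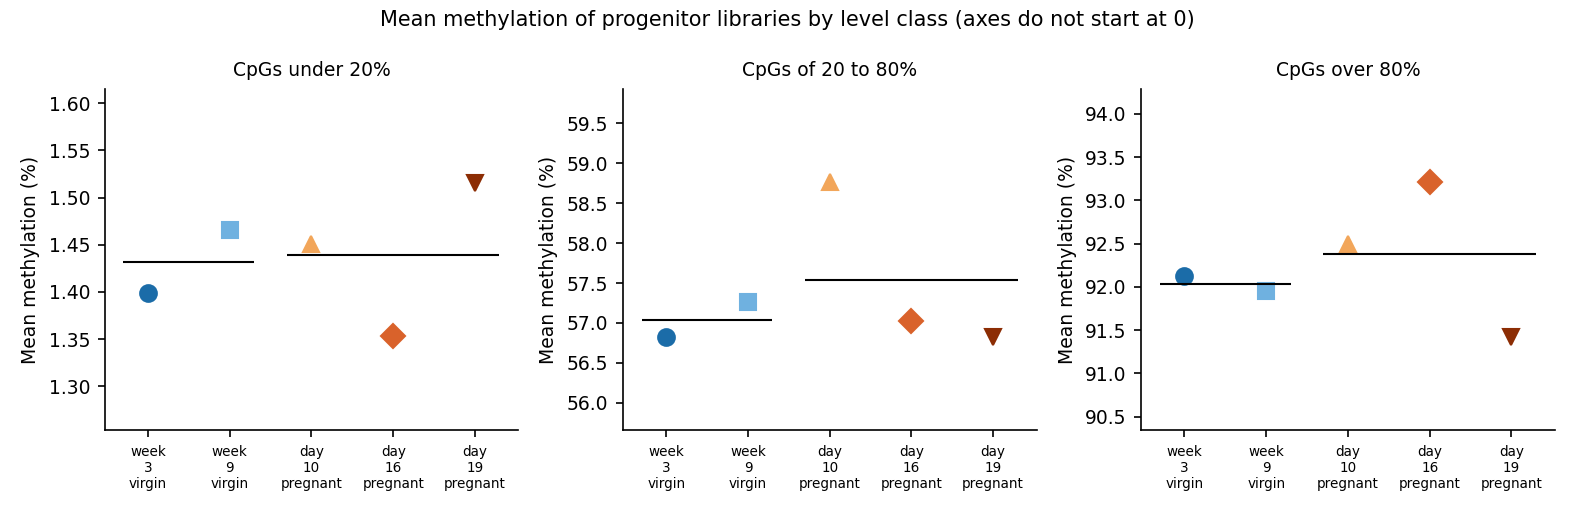
Mean methylation (%, vertical axis, not starting at 0) of CpGs with a mean level under 20%, of 20 to 80% and over 80% in each progenitor library, 1 point per library, with horizontal lines at the means of the 2 virgin and the 3 pregnant libraries. The virgin and pregnant libraries overlap in every class, and the widest difference of the group means is 0.497 points, at 20 to 80%.

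The level of the X chromosome was higher than that of the autosomes in every library. Its 46073 CpGs had means of 75.0%, 75.2%, 75.7%, 75.7% and 74.5% in week 3, week 9, day 10, day 16 and day 19, against 45.8%, 45.8%, 46.2%, 46.2% and 45.5% over the autosomes. In both sets day 10 and day 16 were highest and day 19 lowest. Pregnant minus virgin was 0.232 points on the X chromosome (exact permutation p = 0.7) and 0.219 points on the autosomes (exact permutation p = 0.4).

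No region passed the test of pregnancy in progenitor cells. Of 101394 tiles, 0 (0%) reached an adjusted p under 0.05 with a difference of at least 10 points in a quasi-binomial model of methylated and unmethylated reads, and the smallest adjusted p was 0.933. At an unadjusted p under 0.05 there were 3944 tiles (3.89%), 2314 with higher and 1630 with lower means in the pregnant libraries. Of such tiles there were 1610 with thinned reads and 1517 without the week 9 library. A test with limma on log ratios of the same reads also called 0, with 2421 tiles at an unadjusted p under 0.05. The week 3, week 9 and day 10 libraries alone, whose files share a layout, gave 0 calls and 2257 tiles at an unadjusted p under 0.05, with the lone pregnant library assumed to vary like the virgin ones. Differences were small: group means lay within 5 points of each other in 84.5% of tiles and within 10 points in 96.7%. In 140 tiles the group means were at least 20 points apart without passing the test. In simulated data with the depth and spread of these libraries, the test called few or none of the changes put in. This held for large ones too, and for tiles, single CpGs and promoters alike. Among tiles, 0 of 100 changes of 20 points and 2 of 100 changes of 40 points were called. Of these changes, 90% and 99% had an unadjusted p under 0.05 in the quasi-binomial model. Changes spread over many more tiles were not simulated. A count of 0 therefore does not show that methylation was unchanged.

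In 16522 tiles (16.3%) the range of the virgin libraries was separate from that of the pregnant libraries. The 5 libraries split into 2 and 3 in only 10 ways, so separate groups are common without any difference of state. Such counts, also those of CpGs and promoters below, are therefore descriptions and no result of pregnancy. With a distance of group means of at least 10 points there were 1193 with pregnant libraries higher (1.18%) and 535 with pregnant libraries lower (0.528%), and past 20 points 65 and 29. With all libraries thinned to the depth of day 16 the counts at 10 points were 1996 and 1107, and with at least 10 reads per CpG they were 677 and 240. The 10-read filter left fewer tiles to count, so its counts are not shares of the same total. In all 3 settings more such tiles were higher than lower in the pregnant libraries. Leaving out any library gave 2168 to 3739 higher and 1091 to 1856 lower tiles, since fewer libraries separate more easily. They lay mostly in tiles of intermediate level: 75.1% had a mean of 20 to 80%, a class that held 23.7% of all tiles, and 98.4% had 3 to 9 measured CpGs, against 76.8% of all tiles. On the X chromosome they were 58 of 4505 tiles.

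Distances between single libraries were on average no larger across the states than within pregnancy. With reads thinned to equal depth, the mean absolute difference between libraries over tiles of 20 to 80% was 9.73 points for the virgin pair. It averaged 10.2 points over the 6 pairs of a virgin and a pregnant library, with a range of 8.44 to 11.6. The 3 pairs of pregnant libraries were 10.4 to 13.4 points apart, with a mean of 11.7. Day 16 was farthest from the other 4 libraries on average (11.6 points), followed by day 19 (11.3), while week 3, week 9 and day 10 lay at 9.92 to 10.1 points.

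The 20 leading tiles were the 10 of smallest unadjusted p in each direction among tiles with separate groups, at least 10 points of difference and at least 30 reads in every library. None of them passed the adjusted test (adjusted p = 0.933 for each), so they are given as values. The unadjusted p ran from 0.000825 to 0.00377. The 10 higher tiles differed by 11.5 to 22.9 points and the 10 lower tiles by -23.3 to -10.9 points. None overlapped a promoter that could be placed on the genome, and the middle of 4 of them lay within 10 kb of the start of one. Nearest genes are named here only among the placed promoters, and the distance to these reached 264.8 kb.

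Higher tile 9, of 8 CpGs at chr4:136339001-136340000 (mm9), had the largest difference among the higher tiles. Its methylation was 32.6% in week 3, 30% in week 9, 49.1% in day 10, 63.0% in day 16 and 50.5% in day 19. All 3 pregnant libraries lay above both virgin libraries, as the choice of tiles required, by 22.9 points between the means. Separate groups were also found at 6 of its CpGs, against 10.9% of all CpGs, but these hold the reads by which the tile was chosen. The retired progenitor library, which entered no test, was lower in this tile than all the virgin and pregnant progenitor libraries with 11.8%. Its nearest placed promoter was that of Gm31536, whose start lies 52.3 kb away.

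Higher tile 1, of 5 CpGs at chr1:136093001-136094000, was at 56.7% in week 3, 60.3% in week 9, 75.3% in day 10, 78.7% in day 16 and 81.7% in day 19, while the retired library had 64.4%. Higher tile 3, of 6 CpGs at chr1:37447001-37448000, was at 54.4% and 56.3% in the virgin libraries and at 80.7%, 71.0% and 72.6% in the pregnant libraries. In both tiles every single CpG was higher in the pregnant mean, by 8.03 to 29.4 points in higher tile 1 and by 11.8 to 41.0 points in higher tile 3. These CpGs hold the reads by which the tiles were chosen. Higher tile 6, at chr4:128295001-128296000, was the only higher tile within 10 kb of a placed promoter, that of the zinc finger gene Zscan20, which starts 8.16 kb from the middle of the tile. It was at 35.6% and 31.2% in the virgin libraries and at 51.3%, 55.3% and 47.2% in the pregnant libraries, without overlap. Higher tile 2, at chr4:117898001-117899000, was less even: of its 16 CpGs, 2 were separate and higher and 2 were separate and lower. Its difference of 11.5 points was 5.83 points with at least 10 reads per CpG. Its CpGs had levels of 0 to 100% and differed by -17.4 to 20.4 points, so the tile value also moved with how reads were shared among them.

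Among the lower tiles the largest difference was that of lower tile 2, of 3 CpGs at chr5:97433001-97434000, 6.79 kb from the start of Bmp2k, a kinase gene induced by bone morphogenetic protein. Its methylation was 60.3% in week 3, 64.4% in week 9, 42.3% in day 10, 37.7% in day 16 and 37.3% in day 19, a difference of -23.3 points between the means. Lower tile 1, at chr4:46606001-46607000 and 8.30 kb from the start of Coro2a, a coronin gene whose family binds actin, had the smallest p of the lower tiles. It was at 28.4% and 29.4% in the virgin libraries and at 8.10%, 6.41% and 13.6% in the pregnant libraries. The retired library was at 5.13%, with the pregnant libraries. Lower tile 3, at chr11:94849001-94850000, was the closest of the 20 to a placed promoter, 3.03 kb from the start of Ppp1r9b, which encodes spinophilin, a protein phosphatase scaffold. It was at 32.4% and 33.8% in the virgin libraries, at 15.1%, 13.8% and 16.2% in the pregnant libraries and at 32.4% in the retired library, with the virgin libraries. In the 10 lower tiles no CpG had a higher pregnant mean, but these CpGs hold the reads by which the tiles were chosen. With thinned reads all 20 tiles kept their direction, and lower tile 5 moved from -14.8 to -6.22 points. With limma or a library left out the direction could not change, because limma used the same difference and the tiles were chosen for separate groups. With at least 10 reads per CpG, 17 of the 20 could be measured and kept their direction. Thinning and this filter keep part of the reads by which the tiles were chosen, so a kept direction was likely beforehand.

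**Figure D2:**
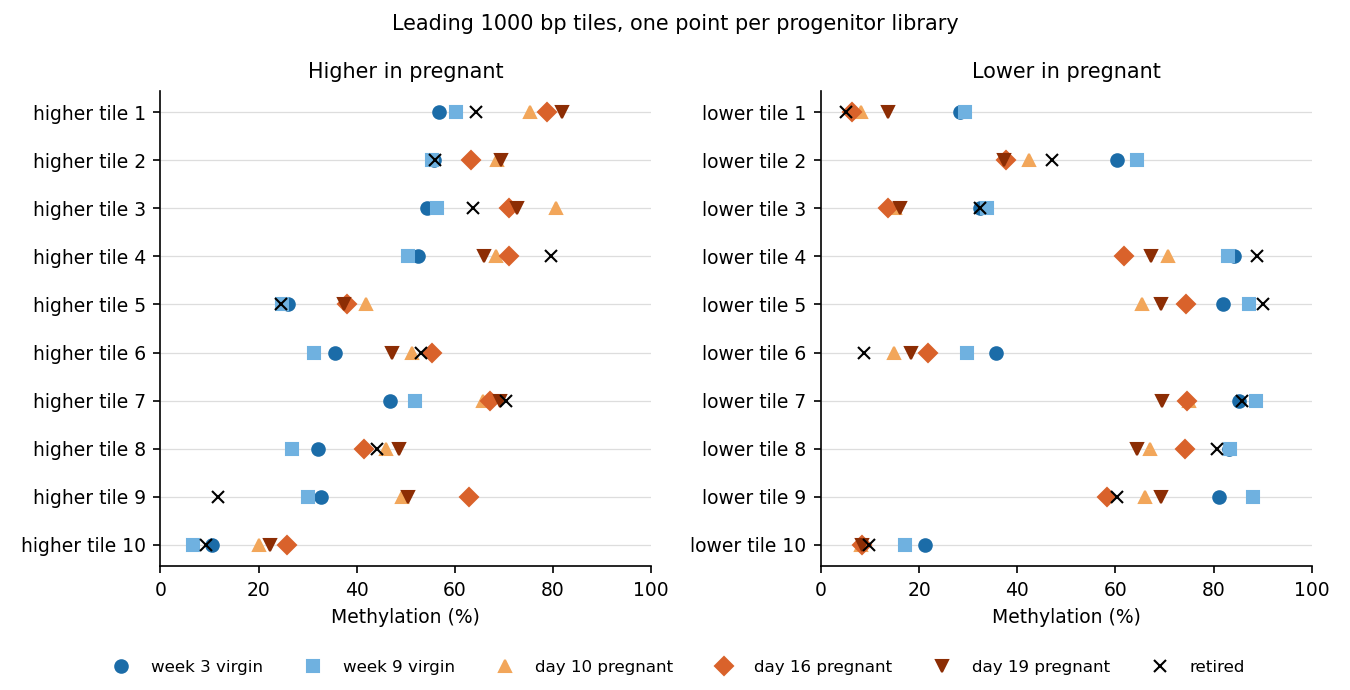
Methylation (%, horizontal axis) of the 10 leading tiles with higher (left) and the 10 with lower (right) methylation in pregnant progenitor libraries, 1 marker per library, with the retired progenitor library as a cross. Virgin markers (blue) and pregnant markers (orange to brown) do not overlap in any tile, which the choice of tiles fixes, and the retired library falls on the virgin side in some tiles (higher tile 5, 24.5%) and on the pregnant side in others (lower tile 1, 5.13%).

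Single CpGs were tested as well, since a tile can dilute a change at 1 site. Of 1044737 CpGs, 0 (0%) were called by the quasi-binomial model, with 8711 (0.834%) at an unadjusted p under 0.05. That count was 3385 with thinned reads and 1247 to 3425 with a library left out. Separate groups with at least 10 points of difference were found at 23283 CpGs with pregnant libraries higher (2.23%) and 16426 with pregnant libraries lower (1.57%). With limma 3 were called, with 38421 at an unadjusted p under 0.05. The first lies at chr8:123219874, 40.4 kb upstream of the start of Irf8, an interferon regulatory factor gene of blood cells, and had 100% in both virgin libraries and 64.7%, 66.7% and 66.7% in day 10, day 16 and day 19. Its reads fell to 6 in the day 19 library. The CpG at chr11:50049476 had 100% in both virgin libraries and 50%, 84.6% and 80% in the pregnant libraries, with 5 reads in day 19. The third, at chr14:118725540, had 100%, 99.01%, 74.1%, 7.69% and 100% in week 3, week 9, day 10, day 16 and day 19, so its groups overlapped. In the quasi-binomial model the adjusted p of each of the 3 was 1.

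Gene promoters were mostly unmethylated in progenitor cells in both states. A promoter is here the stretch from 250 bases before to 50 bases after a RefSeq gene start, placed on mm9 by the spacing of its CpGs, and 8038 windows of 7175 genes had at least 3 measured CpGs. Of these, 96.8% were under 20%, 209 were at 20 to 80% and 47 were over 80%. None was called (0 of 8038, 0%), 153 (1.9%) had an unadjusted p under 0.05, and the smallest adjusted p was 0.797. With limma 0 were called and 292 had an unadjusted p under 0.05. Group means lay within 5 points of each other in 98.8% of promoters.

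Weakly methylated promoters outside the X chromosome, 7755 in number, averaged 0.516% in week 3, 0.532% in week 9, 0.484% in day 10, 0.503% in day 16 and 0.449% in day 19. The pregnant libraries lay below both virgin libraries with a difference of -0.0454 points (exact permutation p = 0.2). Over all promoters 1400 (17.4%) had separate groups, 170 with pregnant libraries higher and 1230 with pregnant libraries lower. Depth moved with this count: 38.4%, 26.0%, 41.2%, 73.7% and 60.5% of promoters had no methylated read in week 3, week 9, day 10, day 16 and day 19, at a median of 472, 875, 657, 174.5 and 282 reads per promoter. With reads thinned to the shallowest library, 148 were higher and 550 lower.

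Promoters at intermediate level were largely those of the X chromosome, 129 of 209. They averaged 27.2% in week 3, 29.6% in week 9, 30.9% in day 10, 31.7% in day 16 and 28.6% in day 19. Day 19 fell between the virgin libraries, so the groups overlapped, and the difference of 2.01 points did not pass (exact permutation p = 0.3). The 80 intermediate promoters of other chromosomes averaged 42.3%, 44.2%, 45.8%, 45.1% and 42.7%, a difference of 1.24 points (exact permutation p = 0.4). The order of the libraries was alike in both sets, with day 10 and day 16 highest and week 3 lowest.

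Separate groups with at least 10 points of difference were found at 17 promoters, 11 with pregnant libraries higher (0.137%) and 6 with pregnant libraries lower (0.0746%). Of these, 14 lay on the X chromosome, which held 165 of the 8038 promoters. With thinned reads 10 of 17 lay there, with at least 10 reads per CpG 10 of 13, and with a library left out from 12 of 21 (without day 16) to 20 of 33 (without week 9). The others were those of Igf2r, Mcts2 and Map10. All 17 were at 20 to 80%, a class in which the X chromosome held 129 of 209 promoters. Within this class they made up 14 of 129 promoters (10.9%) on the X chromosome and 3 of 80 (3.75%) elsewhere. The windows of Smc1a and Ribc1, which start in opposite directions from the same stretch of the X chromosome, share their 10 CpGs and so are a single measurement.

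**Figure D3:**
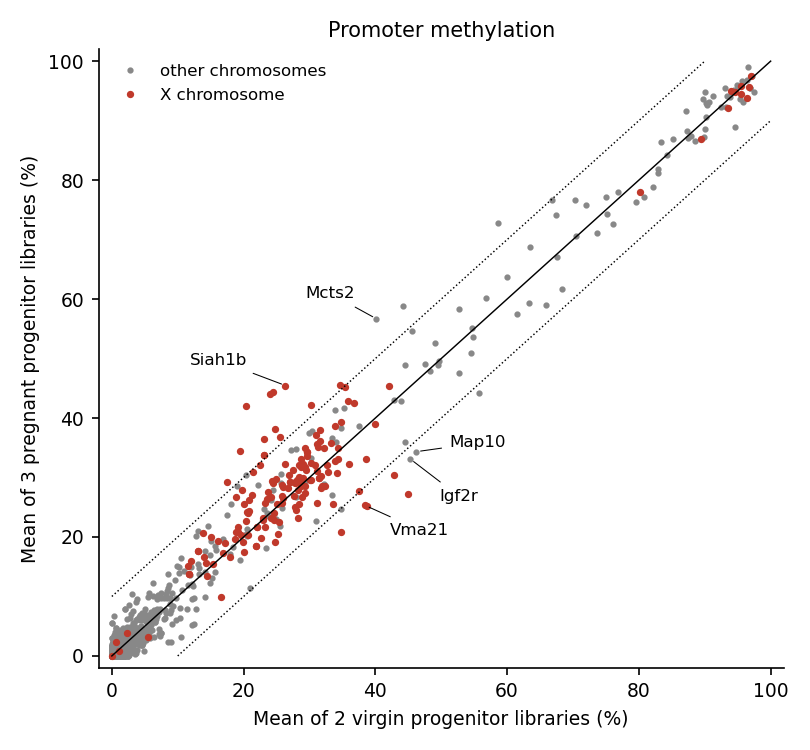
Mean methylation (%) of each of the 8038 promoters in the 3 pregnant (vertical axis) and the 2 virgin progenitor libraries (horizontal axis), with X-linked promoters in red, the line of equality and dotted lines at 10 points of difference. Most points lie near 0, the X-linked promoters form a cloud at intermediate level (129 of 209 promoters at 20 to 80%), and Mcts2, Siah1b, Igf2r, Vma21 and Map10 are marked.

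Igf2r had the smallest unadjusted p of the leading promoters. The gene encodes the receptor that carries insulin-like growth factor 2 to the lysosome, and in the mouse it is expressed from the maternal allele, with methylation on the promoter of the silent paternal allele. Its promoter at chr17:12962523-12962822 (minus strand) had 45.7% in week 3, 44.9% in week 9, 34.2% in day 10, 35.6% in day 16 and 29.5% in day 19. All 3 pregnant libraries lay below both virgin libraries, with a difference of -12.2 points between the means (unadjusted p = 0.00267, adjusted p = 0.797). The 14 measured CpGs, by whose summed reads the promoter was chosen, were all lower in the pregnant mean, with differences of -32.0 to -0.919 points. The groups were separate at 5 of them, which are adjacent. At these 5 the day 16 library had 7.69 to 13.3%, with 12 to 15 reads each, and at the other 9 it had 26.9 to 77.8%. Stem libraries had 39.8% and 33.5% in the virgin and 43.0%, 49.3% and 37.6% in the pregnant stages, and mature libraries 39.97% and 42.7% against 38.4%, 39.5% and 27.6%. The test of progenitor minus stem gave -18.8 points (adjusted p = 0.768) and that of progenitor minus mature -6.03 points (adjusted p = 0.933).

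Mcts2 was the leading autosomal promoter in the other direction. It is a retrogene, a copy of Mcts1 made through RNA, that lies in an intron of another gene and is imprinted, with expression from the paternal allele. Its promoter at chr2:152512634-152512933 (plus strand) had 39.1% in week 3, 41.2% in week 9, 49.2% in day 10, 65.1% in day 16 and 55.7% in day 19. The pregnant libraries were higher by 16.5 points (unadjusted p = 0.0376, adjusted p = 0.797), with 152 to 935 reads per library. The difference lay in the downstream CpGs: the last 4 of the 8 had separate groups, with 81.8 to 100% in the day 16 library, while at the first 4 the groups overlapped and day 16 had 18.8 to 31.3%, below the virgin libraries. CpGs this close can share reads, so these are not separate observations. Because the sequences hold the CpGs on which these differences rest, they are given here from RefSeq (GRCm38.p6, strand of the gene), with the measured CpGs in capitals and the gene start after base 250.
Igf2r: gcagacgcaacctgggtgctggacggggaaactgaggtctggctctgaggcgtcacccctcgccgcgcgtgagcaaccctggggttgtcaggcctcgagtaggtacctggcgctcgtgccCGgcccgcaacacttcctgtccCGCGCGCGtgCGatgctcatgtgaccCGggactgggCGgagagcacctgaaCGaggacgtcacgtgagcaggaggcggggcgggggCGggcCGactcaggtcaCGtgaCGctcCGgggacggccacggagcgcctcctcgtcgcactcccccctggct
Mcts2: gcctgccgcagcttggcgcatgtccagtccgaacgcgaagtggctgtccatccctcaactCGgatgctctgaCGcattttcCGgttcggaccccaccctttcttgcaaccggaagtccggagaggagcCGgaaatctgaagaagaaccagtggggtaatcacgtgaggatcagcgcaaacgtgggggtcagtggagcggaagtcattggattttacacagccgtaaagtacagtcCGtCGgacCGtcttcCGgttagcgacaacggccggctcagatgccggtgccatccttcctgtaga

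Apart from Igf2r, no measured promoter of the imprinted list had separate groups with at least 10 points of difference. Of the 23 imprinted genes on the list, 7 had a measured promoter, 1 of them with an unadjusted p under 0.05 (Igf2r) and 0 with an adjusted p under 0.05. Their median difference was -0.178 points, against -0.0523 points over all promoters. Zrsr1, an imprinted retrogene, had 46.2%, 43.0%, 44.0%, 22.9% and 40.9% in week 3, week 9, day 10, day 16 and day 19, with day 16 alone far below the rest. Plagl1, a zinc finger gene of the growth network, had 17.3%, 24.1%, 19.9%, 25.5% and 26.8%, and Peg12 had 9.66%, 12.2%, 16.5%, 3.797% and 22.6%. In all of these the groups overlapped. The windows of Grb10, Gnas and Igf2 were unmethylated, with at most 1.89%, so a fall of 10 points could not be seen there.

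The leading promoters of the X chromosome went in both directions. Siah1b, which encodes a ubiquitin ligase, had the largest difference among promoters with separate groups and at least 30 reads in every library. It had 21.03% in week 3, 31.7% in week 9, 41.6% in day 10, 50.8% in day 16 and 44.0% in day 19. Its 8 CpGs, by whose summed reads it was chosen, were all higher in the pregnant mean, by 3.05 to 36.0 points (promoter difference 19.1 points, unadjusted p = 0.0391). Dock11, an activator of the small GTPase Cdc42, had 23.1% and 26.5% in the virgin and 38.0%, 46.0% and 30.6% in the pregnant libraries, a difference of 13.4 points (unadjusted p = 0.0298). In both genes day 16 was the highest library and week 3 the lowest. Il13ra1, a receptor chain for interleukin 13, had 16.8% and 18.1% against 25.6%, 39.1% and 23.3%, and its difference of 11.9 points was 6.98 without the day 16 library. Stk26, a kinase of the MST family, had 30.3% and 30.04% against 38.2%, 39.7% and 48.9%, with day 19 highest.

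The promoter of Vma21, an assembly factor of the proton pump of lysosomes, was lower in the pregnant libraries, with 42.1% in week 3 and 34.9% in week 9 against 19.3%, 30.1% and 26.5% in day 10, day 16 and day 19. All 6 of its CpGs, by whose summed reads it was chosen, had a lower pregnant mean, with differences of -20.8 to -4.77 points. Las1l, needed for processing of ribosomal RNA, had 37.2% and 48.4% against 34.6%, 29.7% and 26.8%, and its difference of -12.4 points was -6.78 without the week 9 library. Tbc1d25, a regulator of Rab GTPases, had 40.9% and 28.7% against 18.6%, 16.0% and 27.7%, and its difference of -14.02 points was -7.88 without the week 3 library. The groups of both came within 3 points of each other. Every one of these promoters had an adjusted p of 0.797. For comparison of CpG positions, 2 X-linked promoters of opposite direction are shown from RefSeq (GRCm38.p6, strand of the gene), again with the measured CpGs in capitals: Siah1b was placed at chrX:160514018-160514317 (minus strand) and Vma21 at chrX:69061847-69062146 (plus strand).
Siah1b: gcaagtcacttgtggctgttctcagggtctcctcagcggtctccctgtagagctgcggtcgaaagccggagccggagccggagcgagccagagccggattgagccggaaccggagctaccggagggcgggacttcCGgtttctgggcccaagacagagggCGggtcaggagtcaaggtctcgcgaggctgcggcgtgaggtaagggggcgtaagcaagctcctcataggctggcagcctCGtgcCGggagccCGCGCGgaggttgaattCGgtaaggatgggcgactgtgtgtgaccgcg
Vma21: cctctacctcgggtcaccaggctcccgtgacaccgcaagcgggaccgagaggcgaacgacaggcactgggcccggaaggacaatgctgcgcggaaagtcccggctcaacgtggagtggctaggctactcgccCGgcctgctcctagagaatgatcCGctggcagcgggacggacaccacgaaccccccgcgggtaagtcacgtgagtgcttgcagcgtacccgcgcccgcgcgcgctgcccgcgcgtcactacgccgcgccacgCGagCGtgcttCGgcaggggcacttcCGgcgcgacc

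Map10, a gene for a microtubule-associated protein on chromosome 8, completed the leading promoters, with 42.3% and 50.1% against 42.3%, 19.3% and 41.5%. The day 10 and day 19 libraries were close to week 3, and without day 16 the difference of -11.9 points was -4.36. Its 9 CpGs differed by -9.11 to 7.87 points, 4 of them higher and 3 lower. Of these, 2 CpGs had 55.6 to 93.9% in every library and the other 7 had 0 to 20%, so the promoter value also moved with how the reads were shared among its CpGs.

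**Figure D4:**
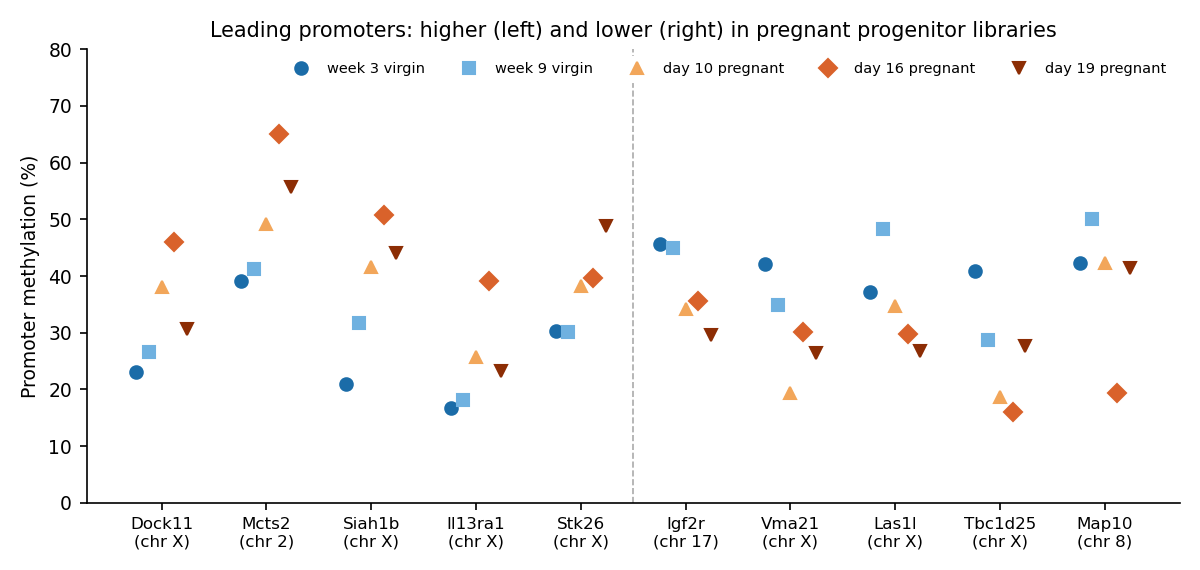
Methylation (%, vertical axis) of the 10 leading promoters in each progenitor library, 1 marker per library, with 5 promoters that were higher in the pregnant libraries on the left and 5 that were lower on the right. Siah1b lies between 21.03% in week 3 and 50.8% in day 16, Igf2r between 45.7% in week 3 and 29.5% in day 19, and Map10 is set apart by the day 16 library alone.

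The measured promoters of genes of milk formation carried little methylation in either state. Of 14 milk protein genes 1 could be measured, Mfge8, a protein of the milk fat globule membrane, with 0 to 0.692% in the 5 libraries. Of 20 genes of prolactin and alveolar signalling 11 were measured, with group means of 0 to 0.659%, and 0 had an unadjusted p under 0.05. Stat5a and Stat5b, which carry the prolactin signal to the nucleus, had at most 0.345% and 0.691%. Gata3, a regulator of luminal cell fate, had at most 1.36%, and Id2 and Socs3 had no methylated read in any library. Of 16 genes of lipid and lactose synthesis 8 were measured. Aqp5, a water channel gene, had 0.293% and 0.455% in the virgin and 0% in all 3 pregnant libraries (unadjusted p = 0.021, adjusted p = 0.797). The second window of Srebf1, the regulator of lipid synthesis, was the highest of this list with 0 to 4.53%.

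Promoters of the hormone response, cell cycle and methylation machinery lists also had low levels. Of 14 hormone response genes 2 were measured, Wnt4, a signal made in response to progesterone, with 0.229 to 0.867%, and Greb1 with 0 to 0.759%. Of 13 cell cycle genes 6 were measured, with group means of 0.0479 to 0.634%, the inhibitors Cdkn1a, Cdkn1b, Cdkn2a and Cdkn2c among them. Of 11 genes of the methylation machinery 7 were measured. Tdg, a DNA glycosylase that takes part in demethylation, was the most methylated with 2.85%, 5.80%, 3.13%, 13.3% and 1.53% in week 3, week 9, day 10, day 16 and day 19, and its groups overlapped. The methyltransferase promoters of Dnmt1, Dnmt3a and Dnmt3b had at most 3.45% in any window. None of these 3 lists had a promoter with an unadjusted p under 0.05, and the median differences were 0.135, -0.199 and 0.0402 points.

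Pregnancy was then set against the other cell types at the same 86751 tiles. In progenitor cells 0 tiles were called there and 3189 (3.68%) had an unadjusted p under 0.05. In stem cells 268 of the 86751 tiles were called and 12608 (14.5%) had an unadjusted p under 0.05, and in mature cells 0 and 4389 (5.06%). Separate groups at 10 points of difference made up 1.60% of tiles in progenitor, 9.87% in stem and 0.966% in mature cells. The test of the difference itself, the pregnancy effect of progenitor minus stem cells, called 0 tiles (0%), with 9284 (10.7%) at an unadjusted p under 0.05 and a smallest adjusted p of 0.175. For progenitor minus mature cells it called 0 tiles (0%), with 3991 (4.6%) at an unadjusted p under 0.05 and a smallest adjusted p of 0.864. With limma both counts were 0, with 6867 and 1931 tiles at an unadjusted p under 0.05. Across tiles the effect in progenitor cells had a Pearson's r of -0.201 (Spearman's rho -0.121) with that in stem cells and of 0.0332 (rho 0.0125) with that in mature cells, given as a description of libraries that share no samples but do share stages.

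Of the 17 leading tiles measured in all 15 libraries, 10 had separate stem groups on the side opposite to progenitor cells, 3 had them on the same side and 4 overlapped. Over all 86751 tiles stem groups were separate with pregnant libraries higher in 8.19% and lower in 18.3%, and mature groups in 6.59% and 8.6%. The leading tiles were mostly of intermediate level, unlike most of all tiles, and the share among tiles like them was not computed. Mature groups were separate at 2 of the 17, at 1 on the opposite and at 1 on the same side. Of the 10 leading promoters, 1 had separate stem groups on the opposite side (Stk26) and 2 on the same side (Vma21 and Las1l), and 1 had separate mature groups on the same side (Igf2r). Over 7933 promoters stem groups were separate with pregnant libraries higher in 1.99% and lower in 13.7%, and mature groups in 3.9% and 9.97%. The leading promoters were of intermediate level, unlike most of all promoters. Tile levels of single libraries are given over the CpGs shared by the 5 progenitor libraries. Separation in stem and mature cells and effects between cell types use CpGs with 5 reads in all 15 libraries. Higher tile 3 was at 59.8% and 76.0% in virgin and at 23.3%, 4.59% and 34.7% in pregnant stem libraries, where progenitor cells were higher in pregnancy. Over the CpGs of all 15 libraries its effect was -53.8 points in stem and 15.2 points in progenitor cells. Lower tile 6, at chr10:41300001-41301000, was at 35.7% and 29.7% in virgin and 14.9%, 21.9% and 18.4% in pregnant progenitor libraries. In stem libraries it was at 26.1% and 13.5% against 57.5%, 62.1% and 44.8%, so every stem library of pregnancy lay above both virgin ones. Lower tile 2 was lower with pregnancy in both, and more so in stem libraries, where it was at 65.1% and 76.1% against 16.0%, 4.92% and 29.0%. None of these differences between cell types passed after adjustment over all tiles (adjusted p 0.175 to 0.621 for progenitor minus stem and 1.00 for progenitor minus mature over the 17 leading tiles measured in all 15 libraries).

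**Figure D5:**
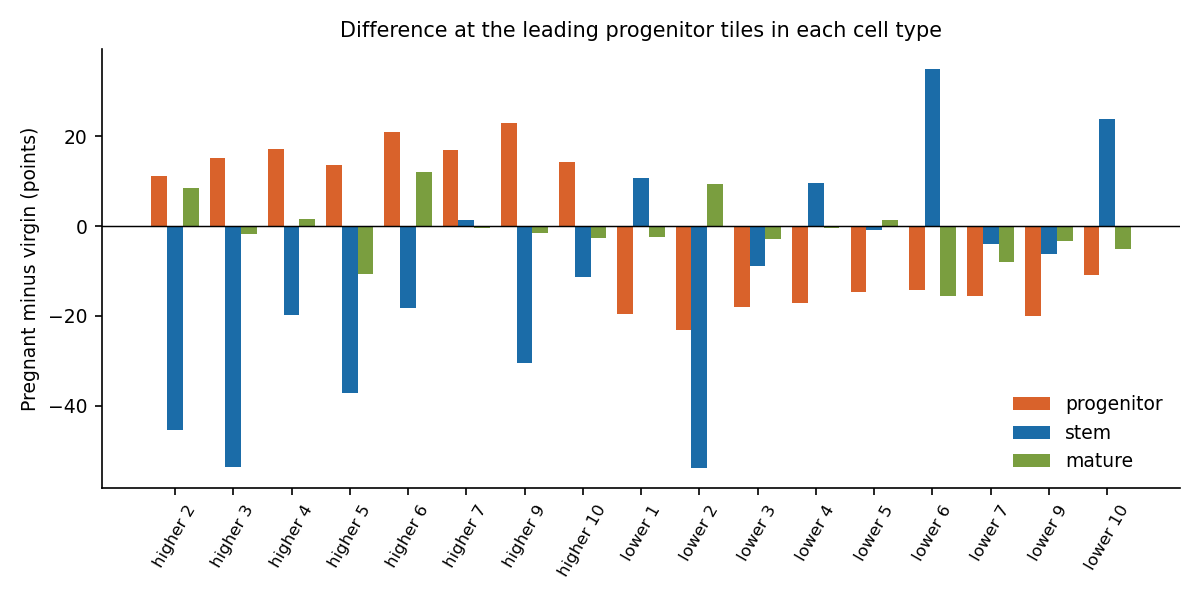
Pregnant minus virgin mean methylation (percentage points, vertical axis) at the 17 leading progenitor tiles measured in all 15 libraries, in progenitor, stem and mature cells, with 1 bar per cell type and no error shown. The progenitor bars have the sign by which the tiles were chosen, the stem bars reach -53.9 points at lower tile 2 and 35.0 points at lower tile 6, and the mature bars stay within 15.7 points.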

How the data were processed

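Libraries were made by reduced representation bisulfite sequencing, in which DNA is cut with MspI (at CCGG) and unmethylated cytosine is converted, per the labels' protocols. The deposited files, on mm9 by the submitters' processing notes, give methylated and total reads for each CpG. The aligner and caller were not given in the sources used here, nor was any removal of duplicates, so reads may include PCR copies. The day 16 and day 19 progenitor files also hold a score that the authors deposited, which differed from 1000 times the share of methylated reads by at most 0.5 and served only as a check.

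Reads at CpGs covered 5 times or more in every library of a fit were summed in 1000 bp tiles and promoters with at least 3 CpGs. A quasi-binomial logistic regression was run per feature, its dispersion moderated across features and never below 1. F tests were adjusted by Benjamini-Hochberg across all features. A call needed an adjusted p under 0.05 and 10 points of difference. Differences between cell types were interaction terms over 15 libraries. Library means were compared by exact permutation. The procedure was tested on simulated data, where the progenitor comparison called few or none of the planted changes.

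No mm9 gene annotation was used. RefSeq promoter sequences (GRCm38.p6, 300 bases) were placed by matching the spacing of their CpGs to the listed CpGs (at least 6 matched, no listed CpG lacking in the sequence, a single best place), without converting coordinates. Of 32851 windows 8501 were placed, and 8444 (99.3%) lay in the gene order of the table; the other placements were left out, a choice made after seeing the data.

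Named tiles and promoters were the 10 and 5 of smallest unadjusted p in each direction among those with separate groups, at least 10 points and 30 reads, plus measured list genes. The limma CpGs, Smc1a and Ribc1 were chosen after their values were seen. Members, lists and tests were chosen with earlier results of these data known. Alternatives were 10 reads, thinned reads, other tile sizes, CpG minimums and thresholds, removal of the 99th percentile of coverage or of the sex chromosomes, limma on log2((methylated + 1)/(unmethylated + 1)), stage as a block, all 18 libraries, the 4-column files alone, and each library left out. Python 3.11.15 (numpy 2.4.6, scipy 1.17.1, pandas 2.3.3, matplotlib 3.10.9) were used with limma 3.58.1 under R 4.3.3.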

Additional observations from a re-analysis of the deposited data

Results flagged for a closer look

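At 10 of the 17 leading tiles measured in all 15 libraries, all pregnant libraries lay on one side of both virgin libraries in progenitor cells and on the opposite side in stem cells. At 3 others (lower tiles 2, 3 and 9) the stem groups were separate on the same side. Stem groups were separate in 8.19% (pregnant higher) and 18.3% (pregnant lower) of all tiles, most of which were not of intermediate level like most leading tiles. The pregnancy effect of progenitor minus stem cells was 56.6 points at higher tile 2, 69.0 at higher tile 3, 37.2 at higher tile 4, 51.0 at higher tile 5, 39.1 at higher tile 6 and 53.4 at higher tile 9. It was -30.3 points at lower tile 1, -26.6 at lower tile 4, -49.3 at lower tile 6 and -34.9 at lower tile 10. These effects use CpGs with 5 reads in all 15 libraries, which can be fewer than those of the tile levels given above. The test of this difference gave adjusted p-values of 0.175 to 0.390 over these 10 tiles, so none passed. Higher tiles 2 and 5 hold CpGs of very unlike level, so their values could also move with how reads were shared among the CpGs.

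At lower tile 2 the same opposition was seen with mature cells, where the pregnancy effect of progenitor minus mature cells was -32.8 points (adjusted p = 1.00). The mature libraries were at 40.9% and 36.9% in the virgin and 46.5%, 47.6% and 51.1% in the pregnant stages.

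The promoter of Stk26 was higher in every pregnant progenitor library and lower in every pregnant stem library, where it was at 23.4% and 31.9% in the virgin and 16.2%, 20.2% and 20.8% in the pregnant stages. It was the only 1 of the 10 leading promoters with this opposition, while Vma21 and Las1l had separate stem groups on the same side. Stem groups were separate in 1.99% (pregnant higher) and 13.7% (pregnant lower) of all promoters, most of which were weakly methylated, unlike the leading ones. The effect of progenitor minus stem cells was 20.6 points (adjusted p = 0.768). The tiles and the promoter had been chosen for their progenitor difference, so that side of each opposition was fixed by the choice.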

How the results depend on the processing

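The counts of called tiles, CpGs and promoters and of both differences between cell types were 0 under every alternative run, except for 3 CpGs with limma. Since few or none of the changes put into simulated data were called in the progenitor comparison, its counts say nothing about stability. For progenitor minus stem cells, 0 of 100 planted changes of 20 points and 30 of 100 of 40 points were called. For progenitor minus mature cells, 3 of 100 and 46 of 100 were called. False calls numbered 3 for progenitor minus stem and 9 for progenitor minus mature cells. Most planted changes thus went uncalled in both differences between cell types. The 20 named tiles and 10 named promoters kept their direction with thinned reads. The 17 tiles and 6 promoters that could be measured with 10 reads did so too. Both settings keep part of the reads by which the members were chosen, so a kept direction was likely beforehand. With limma or a library left out their direction was fixed, because limma used the same difference and the members were chosen for separate groups. The small difference of mean methylation turned to -0.459 points with pooled reads and -0.160 at each library's own CpGs, and tiles of 20 or more CpGs turned to -0.00296 with 10 reads. With each library left out, CpGs under 20% ranged from -0.0303 to 0.0505 points, CpGs of 20 to 80% from -0.115 to 0.855, CpGs over 80% from -0.0786 to 0.818 and tiles of 20 or more CpGs from -0.0283 to 0.144. Separate tiles past 10 points numbered 677 higher and 240 lower with 10 reads, 1996 and 1107 with thinned reads, and 2168 to 3739 and 1091 to 1856 with a library left out. Separate promoters numbered 7 higher with 10 reads, a filter that also left fewer tiles and promoters to count. With a library left out separate promoters numbered 14 to 23 higher, 6 to 14 lower and 21 to 33 in all, fewer libraries separating more easily. The cause of the other shifts was not tested. With stage as a replicate block, progenitor minus stem and progenitor minus mature stayed at 0 called tiles, with 9610 and 4188 at an unadjusted p under 0.05. No paired analysis was possible for virgin against pregnant libraries because their stages differ and the labels number no replicates. Depth and the number of libraries limit the test, and large differences could also go uncalled.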

Other observations

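CpGs of chromosome Y were listed in all 5 libraries, which the labels give as female. They numbered 781 to 891 per library, and 627 had at least 5 reads in all 5, with a mean level of 88.2 to 88.8%. Their median reads per CpG were 27, 54, 38, 11 and 16 in week 3, week 9, day 10, day 16 and day 19, against 31, 58, 43, 11 and 19 on the autosomes. The origin of these reads was not tested.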
